A study of Arabidopsis thaliana with 15 samples.

Results

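In the fifth rosette leaf of Arabidopsis thaliana, 28 genes had less RNA in every library that lacked the DNA demethylases ROS1, DML2 and DML3 than in every library that kept them. They were selected on their measured levels. Levels are in CPM, which scales each library's gene counts to a common total. A gene was taken when its mean in WT was at least 1 CPM and its lowest CPM over the 8 WT and dme libraries was at least 1.5 times its highest CPM over the 7 rdd and drdd libraries. The search covered 16900 of the 37336 counted genes, those with a mean of at least 1 CPM in WT and a locus number ending in 0 or 5. DML2, one of the mutated genes, was left out. The 28 genes are 0.166% of those searched, and because the rule used these levels, the differences of rdd and drdd from WT and dme are described here without a test.

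ROS1, DML2, DML3 and DME are DNA glycosylases that cut 5-methylcytosine out of DNA, after which base excision repair puts back an unmethylated cytosine. ROS1 is known to keep DNA methylation from spreading out of transposons and repeats into nearby promoters, and its loss can silence the gene next to such an element. DME is best known from the central cell of the ovule, where it demethylates the maternal genome before fertilisation. None of the libraries measured DNA methylation, so levels of RNA are all that is reported.

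Libraries of 4 genotypes were compared. The drdd plants (3 libraries, B to D) carried dme-2 together with ros1-3, dml2-1 and dml3-1, and the rdd plants (4 libraries, A to D) carried ros1-3, dml2-1 and dml3-1 with DME intact. The dme plants (4 libraries, A to D) carried dme-2, and the WT plants (4 libraries, A to D) were segregants with all 4 demethylase genes intact. All of the genotypes, WT included, carried a transgene written pAGL61::DME in the labels of WT and dme and pAGL61:DME in those of rdd and drdd, which places DME under the AGL61 promoter, known for activity in the central cell. Leaves were taken at day 21 from plants grown in 16 h days at 22 °C and 50% humidity, and polyadenylated RNA was sequenced. The labels do not say that replicate letters stand for separate plants, and a p-value then rests on how far the libraries of a genotype spread, which may be technical. Each mutant allele comes with the chromosome segment around it, and this design cannot separate the effect of the mutation from that of the segment.

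The libraries held 8730340 to 23302135 gene counts, with a median of 12178873. The 5 leaf mesophyll genes summed to 36786 to 58089 CPM, and the floral, root and shoot meristem marker genes were at or near 0, apart from a floral sum of 16.7 CPM in 1 rdd library. WUS and CLV3, which define the stem cell niche of the shoot, had no count in any library. DML2 itself had 12.3, 9.34 and 6.93 CPM in drdd B to D, 6.32, 10.6, 5.81 and 5.28 CPM in rdd A to D, 26.1, 22.8, 27.3 and 27.3 CPM in dme A to D, and 31.9, 25.3, 27 and 20.5 CPM in WT A to D, lower in every drdd and rdd library than in every dme and WT library. That checks the division of drdd and rdd from dme and WT and nothing within either pair. DME had 70.2 to 84.2 CPM in drdd, 73.9 to 110.2 CPM in rdd, 53.4 to 73.7 CPM in dme and 73.7 to 101 CPM in WT, so its level did not separate drdd from rdd, and dme and WT met at 73.7 CPM. A leaf is a mixture of cell types, and in such bulk samples fewer cells of a type and less RNA per cell cannot be told apart. Of the 15 genes of salicylic acid defence, 0 were called in rdd or drdd against WT, and the same held for the mesophyll, guard cell, phloem and xylem markers. The median log2 fold change of the 15 defence genes was −0.53 in rdd and −0.70 in drdd, against −0.01 and 0.00 for all tested genes. Within WT alone PR1, a gene of this list, ran from 1.11 to 502.5 CPM, so the absence of calls does not show equal levels. In drdd against dme, where 2.26% of all tested genes were called, 2 of the 5 mesophyll genes were called lower by edgeR, RCA (rubisco activase; log2 fold change −0.91, adjusted p = 0.0448) and CA1 (a carbonic anhydrase; −1.22, adjusted p = 0.0115). The part of this difference in the drdd and dme levels of the 28 genes was not tested.

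The promoters of 6 of the genes are shown because the results below turn on these genes: AT2G24755, AT2G32160 and RLP34 had the largest losses in rdd, and AT2G33830, AT4G13575 and AT5G35480 were lower again in drdd. Each sequence is the 250 bases before the annotated start of the gene, read 5′ to 3′ on the gene's strand from the TAIR10.1 assembly of RefSeq, whose annotation also gave the positions. The count tables carry no coordinates of their own. Capitals mark CG, a context in which plants copy methylation through DNA replication. Other contexts are not marked. The window of AT2G24755 is chr2:10549494-10549743 (minus strand), that of AT2G32160 is chr2:13661888-13662137 (plus strand) and that of RLP34 is chr3:3453986-3454235 (minus strand). The window of AT2G33830 is chr2:14310609-14310858 (minus strand), that of AT4G13575 is chr4:7893762-7894011 (minus strand) and that of AT5G35480 is chr5:13689597-13689846 (minus strand).
AT2G24755: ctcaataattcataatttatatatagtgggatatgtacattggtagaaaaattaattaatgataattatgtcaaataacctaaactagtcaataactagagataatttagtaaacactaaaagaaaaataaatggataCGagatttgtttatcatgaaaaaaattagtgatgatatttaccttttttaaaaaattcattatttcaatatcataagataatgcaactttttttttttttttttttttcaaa
AT2G32160: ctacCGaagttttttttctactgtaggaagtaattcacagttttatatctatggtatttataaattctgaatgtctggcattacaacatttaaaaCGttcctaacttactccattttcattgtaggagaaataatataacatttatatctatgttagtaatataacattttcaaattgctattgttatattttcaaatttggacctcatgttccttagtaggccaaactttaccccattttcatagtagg
RLP34: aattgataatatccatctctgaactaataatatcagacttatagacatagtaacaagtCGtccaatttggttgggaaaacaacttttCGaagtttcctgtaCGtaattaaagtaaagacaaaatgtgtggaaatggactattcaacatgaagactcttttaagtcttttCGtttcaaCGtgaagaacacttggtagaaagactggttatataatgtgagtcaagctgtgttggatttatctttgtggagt
AT2G33830: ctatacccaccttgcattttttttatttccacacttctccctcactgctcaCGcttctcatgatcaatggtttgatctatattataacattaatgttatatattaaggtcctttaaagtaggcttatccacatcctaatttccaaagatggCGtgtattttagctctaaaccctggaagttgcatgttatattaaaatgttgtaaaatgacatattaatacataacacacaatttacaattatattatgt
AT4G13575: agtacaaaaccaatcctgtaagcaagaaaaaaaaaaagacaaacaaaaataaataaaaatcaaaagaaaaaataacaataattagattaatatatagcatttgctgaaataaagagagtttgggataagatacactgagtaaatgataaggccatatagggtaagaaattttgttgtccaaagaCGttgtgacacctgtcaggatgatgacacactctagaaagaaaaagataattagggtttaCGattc
AT5G35480: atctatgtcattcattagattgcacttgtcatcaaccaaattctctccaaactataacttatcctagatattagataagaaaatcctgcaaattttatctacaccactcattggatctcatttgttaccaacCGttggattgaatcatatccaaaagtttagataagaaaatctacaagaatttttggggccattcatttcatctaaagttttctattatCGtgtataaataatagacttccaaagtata

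Over the windows of the 28 genes the median was 3 CG (quartiles 2 to 5.25, range 1 to 9), against a median of 5 (quartiles 3 to 8, range 0 to 25) over the 16899 windows of all searched genes that could be read. Of the windows shown, the one of AT2G24755 has 1 CG and the one of RLP34 has 5. The letters TATAAA, the core of the TATA box, occurred on either strand in 12 of the 28 windows (42.9%, against 45.2% of all). TTGACC or TTGACT, the W box known as the binding site of WRKY factors, occurred in 9 (32.1%, against 27.9%), and CACGTG, the G box, in 3 (10.7%, against 7.38%). Each motif was searched on both strands and none contains another, and a match is a description of the sequence only.

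The size of the loss differed widely among the genes. Comparing group means, rdd was 2.47-fold to 293-fold lower than WT, with a median of 13.4-fold, and 16 genes were at least 10-fold lower while 5 were less than 4-fold lower. The drdd mean was 2.54-fold to 878-fold lower than the dme mean, with a median of 20.1-fold, at least 10-fold in 18 genes and less than 4-fold in 3. The highest of these is AT2G24755, with 1 count in drdd. Where a group had no count, the fold was taken against 3 counts in the whole group, as a floor, and is a lower bound, which applied to 1 gene in rdd and 6 in drdd. With 1 to 3 counts over a group (4 genes in rdd and 5 in drdd) the fold depends on single reads. The range and median include these folds and the bounds. A fold given below with an exact interval is from pooled counts, not group means. Intervals and floors cover counting error only. In 11 genes the fold or bound in rdd, and in 12 genes that in drdd, moved by over 1.5 times when 1 library was left out. Without rdd A the rdd fold was 560.3-fold for AT2G32160 and 332-fold for RLP34, without WT A it was 141-fold for RLP34, and without drdd B the 2 remaining drdd libraries of AT2G24755 had no count, at least 106.5-fold below dme, and the bound of AT4G11000 was at least 68.5-fold. All 28 genes passed the count filter of the fit on all 15 libraries. A gene low in drdd and rdd can pass it through its WT and dme libraries. Summed over the 28 genes, the level was 152 to 202 CPM in the drdd libraries, 315 to 420.1 CPM in the rdd libraries, 1310 to 1583 CPM in the dme libraries and 1234 to 1810 CPM in the WT libraries. Between 9 and 10 of the genes had no count at all in a drdd library and 4 to 5 in an rdd library, whereas each of the 28 had counts in every dme and WT library.

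**Figure D1:**
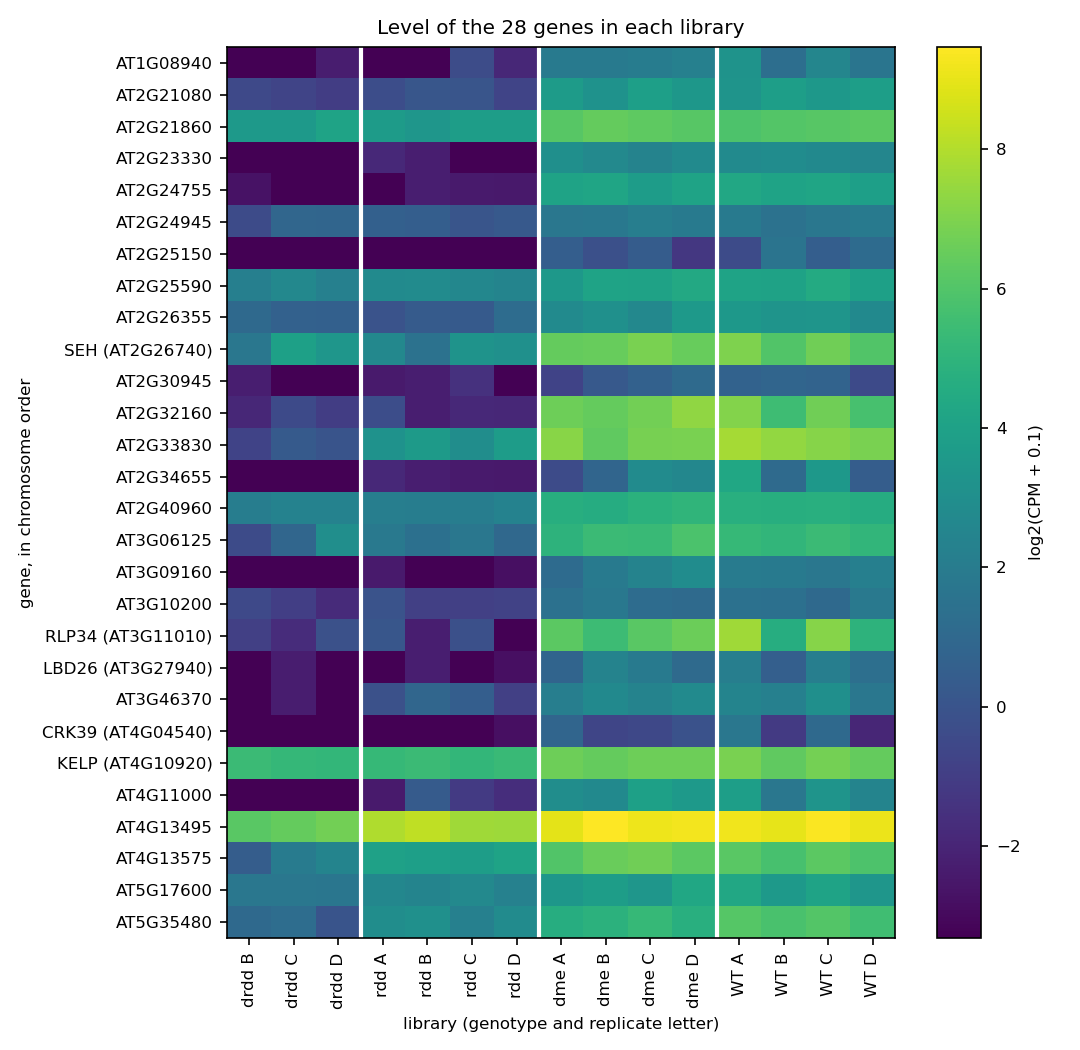
Level of each of the 28 genes (rows, in chromosome order) in each of the 15 libraries (columns, grouped by genotype), as log2(CPM + 0.1) with dark colours for low levels. The drdd and rdd columns are darker than the dme and WT columns in every row, as the rule requires, from a slight step at AT2G24945 to a drop to no counts at AT2G25150.

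Noncoding RNAs made up a larger share of the 28 genes than of the genes searched. Of the 28 loci, 5 are annotated as noncoding RNA (17.9%, against 0.710% of the searched genes), 1 as a pseudogene (3.57%, against 0.728%) and 22 as protein coding (78.6%, against 98.6%). AT2G24755, a long noncoding RNA, had 0.0557, 0 and 0 CPM in drdd B to D, 0, 0.109, 0.0867 and 0.0858 CPM in rdd A to D, 16.8, 18, 13.4 and 17.1 CPM in dme A to D, and 19.99, 17.2, 18.4 and 14.9 CPM in WT A to D. Its 4 rdd libraries held 4 counts in all, and its mean was 250.5-fold lower in rdd than in WT. The 3 drdd libraries held 1 count, which by pooled counts makes drdd 614-fold lower (exact 95% interval 109.9 to 24275) than dme. By group means the same count gave 878-fold. AT2G24755 overlaps AT2G24750 and AT2G24760 on the other strand, and with no strand setting known its reads cannot be told from theirs.

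AT4G13495, also annotated as noncoding RNA, had 73.7, 86.7 and 106 CPM in drdd B to D, 244, 303, 203 and 194 CPM in rdd A to D, 486, 709, 568 and 616 CPM in dme A to D, and 591, 513, 682 and 548 CPM in WT A to D. It was 2.47-fold lower in rdd than in WT and 6.7-fold lower in drdd than in dme, and it was the gene of the 28 with the most counts in the drdd and rdd libraries. AT3G06125 had 0.668 to 8.03 CPM in drdd, 1.89 to 3.51 in rdd, 30.9 to 57.4 in dme and 34.1 to 42.7 in WT, with drdd B lowest and drdd D highest among its low libraries. AT2G26355, which overlaps AT2G26360 on the other strand, had 1.41 to 1.95 CPM in drdd, 0.878 to 2.19 in rdd, 6.08 to 11.7 in dme and 6.72 to 11.1 in WT. The levels of AT2G30945 were near the limit of counting, with 0 to 0.111 CPM in drdd, 0 to 0.26 in rdd, 0.504 to 2.05 in dme and 0.633 to 1.72 in WT. Its 2 counts in drdd make it 23.5-fold lower (exact 95% interval 6.25 to 198) than dme. The pseudogene AT2G23330 had 0 CPM in drdd, 0 to 0.176 in rdd, 5.26 to 8.28 in dme and 5.69 to 7.33 in WT. It had no drdd count, at least 83.4-fold below dme, and 3 rdd counts, 121-fold lower (exact 95% interval 40.9 to 589) than WT.

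Among receptors and immune-type proteins, RLP34, a receptor-like protein of a family with roles in pathogen sensing, had 0.445, 0.207 and 0.803 CPM in drdd B to D, 0.966, 0.109, 0.78 and 0 CPM in rdd A to D, 77.1, 43, 72.1 and 95.1 CPM in dme A to D, and 197, 25.2, 140.4 and 31.2 CPM in WT A to D. The rdd mean was 212-fold below WT and the drdd mean 148-fold below dme, although WT itself spread from 25.2 to 197 CPM. AT4G11000, an ankyrin repeat protein gene, had 0 in every drdd library, 0.0878, 1.2, 0.347 and 0.215 CPM in rdd A to D, 7.63, 6.62, 15.5 and 12.1 CPM in dme A to D, and 14.5, 3.21, 9.88 and 5.3 CPM in WT A to D. No drdd library had a count of it, at least 131-fold below dme, and rdd was 17.8-fold below WT. CRK39, a cysteine-rich receptor-like kinase, had 0 CPM in drdd, 0 to 0.0429 in rdd, 0.545 to 1.73 in dme and 0.158 to 3.24 in WT. It had 1 count in all of rdd, 83.3-fold lower (exact 95% interval 14.5 to 3339) than WT, and none in drdd, at least 11.5-fold below dme. AT3G46370, a leucine-rich repeat kinase gene, had 0, 0.104 and 0 CPM in drdd B to D, 0.791, 1.74, 1.3 and 0.429 CPM in rdd A to D, 4.32, 6.62, 5.09 and 6.81 CPM in dme A to D, and 5.42, 4.58, 8.23 and 3.24 CPM in WT A to D. This kinase was 5.04-fold lower in rdd than in WT, while drdd had a single count, 213-fold lower (exact 95% interval 38 to 8449.6) than dme. RLP34 overlaps AT3G11000 and AT4G11000 overlaps AT4G11010 on the other strand. RLP and CRK genes also have near-identical copies, so the levels of RLP34 and CRK39 are uncertain to that extent.

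Of the 6 enzymes, AT2G32160, annotated as an S-adenosylmethionine-dependent methyltransferase, had the largest loss in rdd. It had 0.167, 0.622 and 0.401 CPM in drdd B to D, 0.703, 0.109, 0.173 and 0.172 CPM in rdd A to D, 100.1, 86.9, 106 and 164 CPM in dme A to D, and 137, 44.4, 103 and 54.5 CPM in WT A to D. The drdd and rdd libraries all stayed under 1 CPM and the lowest of the others, WT B, had 44.4 CPM. The means differed 293-fold between rdd and WT and 288-fold between drdd and dme. AT2G25150, an acyltransferase of the HXXXD family, had 0 in every drdd library, 0 in every rdd library, 1.3, 0.779, 1.23 and 0.328 CPM in dme A to D, and 0.647, 2.98, 1.32 and 2.13 CPM in WT A to D. It was the 1 gene with no count in any of the 7 low libraries, at least 11.4-fold lower in drdd than in dme and at least 32.7-fold lower in rdd than in WT. SEH, a soluble epoxide hydrolase, had 3.29 to 15.6 CPM in drdd, 2.72 to 9.28 in rdd, 86.3 to 118 in dme and 63.8 to 129 in WT. AT2G21860, a protein related to violaxanthin de-epoxidase, had 11.8 to 17.1 CPM in drdd, 10.6 to 13.9 in rdd, 71.1 to 85.7 in dme and 60.04 to 75.3 in WT, a step of 5.3-fold between rdd and WT. SEH and AT2G21860 kept counts in every low library. AT1G08940, of the phosphoglycerate mutase family, had 0 to 0.10 CPM in drdd, 0 to 0.694 in rdd, 3.74 to 4.68 in dme and 2.41 to 9.31 in WT, and its 1 count in drdd makes it 151-fold lower (exact 95% interval 26.9 to 6010.4) than dme. AT3G10200, another methyltransferase, had 0.201 to 0.613 CPM in drdd, 0.434 to 0.878 in rdd, 2.05 to 3.35 in dme and 1.98 to 3.56 in WT. AT2G21860 and AT3G10200 each overlap another locus on the opposite strand, AT2G21850 and AT3G10210.

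Another 5 genes encode proteins of nucleic acids or chromatin. KELP, a transcriptional coactivator, had one of the smaller losses, with 41.6, 37.2 and 35.9 CPM in drdd B to D, 38.1, 41.6, 35.1 and 40.5 CPM in rdd A to D, 101, 88.6, 101 and 99 CPM in dme A to D, and 118, 80.1, 109 and 88.3 CPM in WT A to D. It was 2.55-fold lower in rdd than in WT and 2.54-fold lower in drdd than in dme and its level varied little within a genotype. AT2G25590, a Tudor-like protein, had 4.51 to 6.12 CPM in drdd, 5.36 to 7.18 in rdd, 11.1 to 20.7 in dme and 15.2 to 22.2 in WT. AT2G40960, with an R3H nucleic acid binding domain, had 4.12 to 5.08 CPM in drdd, 4.24 to 5.06 in rdd, 24.2 to 32.9 in dme and 24.4 to 26.9 in WT, close to the same level in every low library. AT3G09160, an RNA recognition motif protein, had 0 CPM in drdd, 0 to 0.0878 in rdd, 2.09 to 7.3 in dme and 3.29 to 4.51 in WT. Its 2 counts in rdd make it 107-fold lower (exact 95% interval 29.2 to 889) than WT, and drdd, with none, was at least 57.3-fold below dme. LBD26, a LOB domain transcription factor, had 0 to 0.104 CPM in drdd, 0 to 0.109 in rdd, 1.66 to 5.14 in dme and 1.37 to 4.37 in WT, which is 89.98-fold lower (exact 95% interval 24.5 to 749.8) in rdd than in WT and 116-fold lower (exact 95% interval 20.5 to 4617) in drdd than in dme. KELP overlaps AT4G10910 and AT3G09160 overlaps AT3G09150.

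The other annotated products and the uncharacterised proteins ran from near complete losses to small steps. AT2G33830, a gene of the dormancy and auxin associated family, had 0.501, 1.14 and 0.903 CPM in drdd B to D, 9.14, 12.4, 7.72 and 13.3 CPM in rdd A to D, 147, 80.4, 114 and 121 CPM in dme A to D, and 218, 167, 139 and 118 CPM in WT A to D. Its rdd mean was 15.1-fold below WT and its drdd mean 136-fold below dme. AT4G13575, an uncharacterised protein gene, had 1.28, 3.94 and 5.32 CPM in drdd B to D, 15.7, 14.8, 13.8 and 17.1 CPM in rdd A to D, 63.5, 92.7, 102 and 74.9 CPM in dme A to D, and 73.9, 53.4, 75.8 and 58.5 CPM in WT A to D. It was 4.26-fold lower in rdd than in WT and 23.7-fold lower in drdd than in dme. AT5G35480, also uncharacterised, had 2.005, 2.28 and 0.903 CPM in drdd B to D, 7.73, 8.49, 4.6 and 7.12 CPM in rdd A to D, 24.9, 29.8, 37.5 and 27.1 CPM in dme A to D, and 68.6, 56.1, 65.7 and 46.4 CPM in WT A to D. For this gene the dme libraries were intermediate, all below the WT libraries and above the rdd libraries. AT2G34655 had 0 CPM in drdd, 0.0858 to 0.176 in rdd, 0.648 to 7.14 in dme and 1.27 to 19.3 in WT, with no drdd count (at least 48.5-fold below dme). AT2G21080, annotated as a Ras guanine nucleotide exchange factor, had 0.401 to 0.613 CPM in drdd, 0.515 to 0.979 in rdd, 9.11 to 14.6 in dme and 9.87 to 14.3 in WT. Every drdd and rdd library of this gene was below 1 CPM. AT5G17600, a RING/U-box protein of the type found in ubiquitin ligases, had 3.11 to 3.29 CPM in drdd, 4.76 to 6.5 in rdd, 10.5 to 19.3 in dme and 10.3 to 20.2 in WT. AT2G24945 had 0.668 to 1.76 CPM in drdd, 0.954 to 1.41 in rdd, 3.24 to 4.27 in dme and 2.75 to 3.8 in WT.

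The limit of 1.5 falls within a continuous range of ratios. Just inside it, the ratio of the lowest WT or dme level to the highest rdd or drdd level was 1.54 for AT2G25590, 1.56 for AT2G24945 and 1.58 for AT5G17600. Just outside it were CESA9 (AT2G21770), a cellulose synthase gene, with 1.45, UNE15 (AT4G13560) with 1.44 and QQS (AT3G30720), known for its effect on starch, with 1.40. Another 6 genes met the same conditions with a locus number ending in another digit, a search added after the data were seen. They are AT2G22821, AT2G23672, AT3G09162, AT3G29631, AT4G04223 and AT4G13577.

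Among the 8 WT and dme libraries the genes were not equally steady. In WT the highest library exceeded 3 times the lowest for 8 of the 28 genes, and in dme for 6. In 7 of these 8 genes WT A and WT C were above WT B and WT D, namely AT1G08940, AT2G32160, AT2G34655, RLP34, LBD26, CRK39 and AT4G11000, and in AT2G25150 the order was the opposite. How many of all searched genes spread this far or split this way was not counted. Neither count is therefore read as a trait of the 28 genes. Salicylic acid defence genes differed between the same libraries: their mean log2(CPM + 1) over 15 genes was 5.93 and 5.28 in WT A and C, and 3.17 and 3.15 in WT B and D. PR1, the classical marker of this response, had 503 CPM in WT A and 332 CPM in WT C, against 2.06 CPM in WT B and 1.11 CPM in WT D. The defence mean was 4.09, 3.61 and 3.21 in drdd B to D, 4.51, 4.06, 5.09 and 4.37 in dme A to D, and in rdd 3.18 (A), 5.64 (B), 2.81 (C) and 2.93 (D). Of these 7 genes, AT4G11000 was highest among the rdd libraries in rdd B, where the defence mean was 5.64, with 1.2 CPM (11 counts). LBD26 had 1 count in rdd B and 1 in rdd D, too few to order the libraries. The other 5 had 0 to 0.109 CPM in rdd B and were higher in another rdd library. For AT2G34655 (2 counts in rdd A, 1 in rdd B) and CRK39 (1 count in rdd D, 0 in rdd B) that order rests on single reads. The part of the defence response in the levels of these genes was not tested.

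Whether loss of DME lowers the genes further was asked first in the absence of the other demethylases, as drdd against rdd. Both genotypes lie in the low group of the rule, which did not use the order between them. It did hold every drdd and rdd library below the lowest WT or dme library. A gene that rose far in drdd could not be among the 28, while one that fell by any amount could. The direction and the share of calls here are therefore partly set by the selection. Of the 28 genes, 5 were called, all lower in drdd (17.9%), while 0.468% of the 18598 tested genes were called (27 higher and 60 lower). Calls were made at an adjusted p under 0.05 in edgeR's quasi-likelihood test with Benjamini-Hochberg adjustment over all tested genes. AT2G33830 fell by 3.80 on the log2 scale (SE 0.35, adjusted p = 9.34e-05), with 0.501 to 1.14 CPM in drdd, against 7.72 to 13.3 CPM in rdd. AT4G13575 fell by 2.26 (SE 0.35, adjusted p = 0.0144), AT5G35480 by 2.07 (SE 0.28, adjusted p = 0.00290) and the noncoding RNA AT4G13495 by 1.48 (SE 0.19, adjusted p = 0.00197). AT3G46370 had a fitted log2 difference of −4.85 (SE 0.84, adjusted p = 0.0250). With 1 count in drdd and 50 in rdd, its drdd level was 33.9-fold lower (exact 95% interval 5.81 to 1365). In each of the 5 genes all 3 drdd libraries lay below all 4 rdd libraries. DESeq2 called these 5 and AT4G11000, where it called 1.74% of all genes. With only the rdd and drdd libraries in the fit, 2 of the genes were called, AT2G33830 and AT4G13495. AT3G46370 did not pass the count filter of that fit and was not tested in it. It passed the filter of the main fit through its WT and dme libraries. In the fit on all genotypes without drdd C, 3 were called. The share of all genes called is not given here for either fit, so neither count is read against a background. The call of AT3G46370 was lost without rdd C, drdd B, drdd C or drdd D, that of AT4G13575 without drdd C, and those of the other 3 genes were lost with no single library left out.

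The other 23 genes were not called between drdd and rdd by edgeR. AT4G11000 had 0 counts in drdd and 21 in rdd, a level at least 5.78-fold lower, with an adjusted p of 0.251. Another 5 genes had 3 or fewer counts in each of the 2 genotypes, too few to give a difference. KELP, AT2G40960 and AT2G21860 had log2 differences of −0.10 (SE 0.12), −0.02 (SE 0.14) and 0.02 (SE 0.16), with adjusted p of 0.827, 0.978 and 0.983. The sign for AT2G40960 depends on the scaling, since its log2 ratio of mean CPM was 0.08. The authors' deposited table of drdd against rdd, made with DESeq2, gave an adjusted p for 19 of the 28 genes and called 5 of them, all lower in drdd, where 3.12% of all genes with an adjusted p were called.

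**Figure D2:**
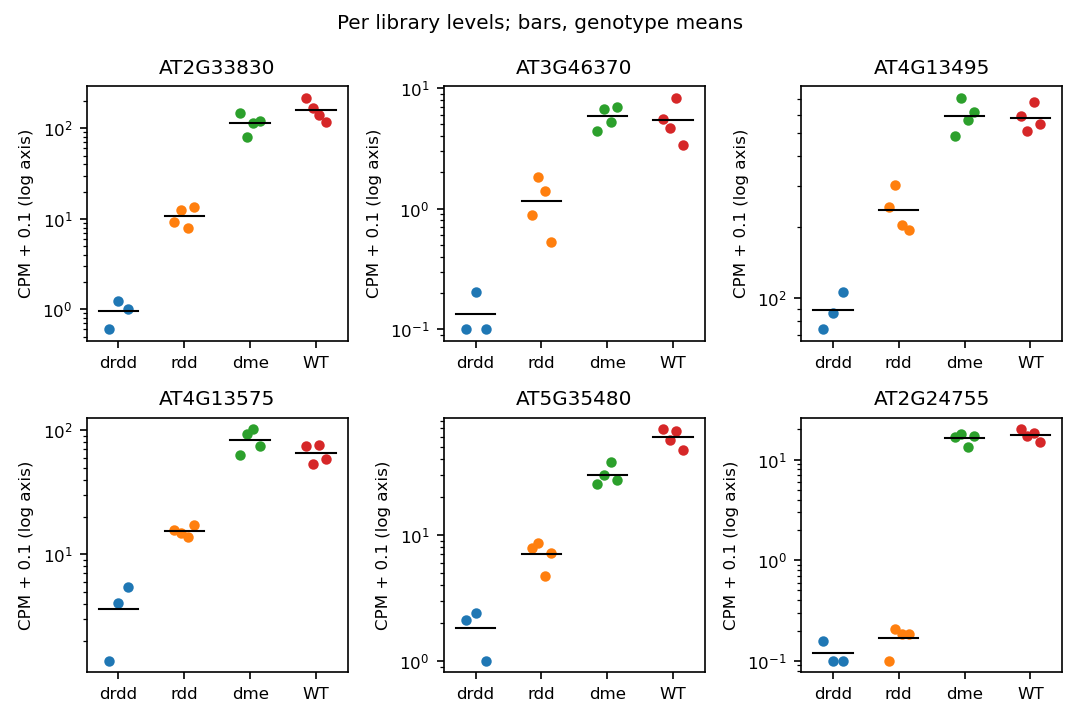
CPM + 0.1 on a log axis for each library (points) with genotype means (bars), in the order drdd, rdd, dme and WT. The 5 genes called in drdd against rdd show a further step down, for example in AT4G13495 to 73.7 to 106 CPM in drdd against 194 to 303 CPM in rdd, while AT2G24755 is near 0 in both.

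Loss of DME alone was read from dme against WT, which lies within the high group of the rule. The rule kept every dme library at least 1.5 times above the highest rdd or drdd library. A gene that loss of DME alone lowered to near the rdd level could not be among the 28. Few calls here are therefore partly set by the selection. None of the 28 genes was called by edgeR, where 0.0108% of all tested genes were (1 higher and 1 lower), and 1 of the 28 had an unadjusted p under 0.05, as had 841 of all tested genes. DESeq2 called 1 of the 28, against 0.0463% of all genes. In both cases this gene was AT5G35480, with a log2 difference of −0.96 (SE 0.20) and an adjusted p of 0.674 in edgeR, against 0.00635 in DESeq2. The authors' deposited table gave −0.95 (SE 0.19) with an adjusted p of 0.00256, and called 0.0509% of all genes. All 4 of its dme libraries (24.9 to 37.5 CPM) lay below the 4 WT libraries (46.4 to 68.6 CPM). The median log2 difference of the 28 genes was −0.01, with 14 below 0, and that of all tested genes was −0.01.

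Whether loss of DME acts differently with and without ROS1, DML2 and DML3 was tested as an interaction, the drdd minus rdd difference less the dme minus WT difference. It shares the drdd and rdd libraries with the comparison above, so its calls are not independent of those calls. The rule also limited how far drdd could rise above rdd and how far dme could fall below WT. Either would make the interaction positive, so the sign and the share of its calls are partly set by the selection. The interaction was called in 3 of the 28 genes, all negative (10.7%), against 0.108% of all tested genes. AT2G33830 had −3.35 on the log2 scale (SE 0.41, adjusted p = 0.00441 in edgeR). Its drdd minus rdd difference of −3.80 stands beside a dme minus WT difference of −0.45 (SE 0.22). AT4G13575 had −2.64 (SE 0.45, adjusted p = 0.0372), with a dme minus WT difference of 0.38 (SE 0.27). AT4G13495 had −1.54 (SE 0.25, adjusted p = 0.0257), with a dme minus WT difference of 0.06 (SE 0.17). AT3G46370 (−4.97, SE 0.94, adjusted p = 0.0773) and AT5G35480 (−1.11, SE 0.34, adjusted p = 0.310) were not called. DESeq2 called the same 3 genes together with AT3G46370 and AT4G11000, of 25 with an adjusted p, where it called 1.04% of all genes. The interaction of AT2G33830 was called under every one of 19 alternatives, that of AT4G13495 was lost under 8 and that of AT4G13575 under 14, and without WT B, dme B, dme D, rdd A, rdd C or drdd C only 1 of the 28 genes was called.

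**Figure D3:**
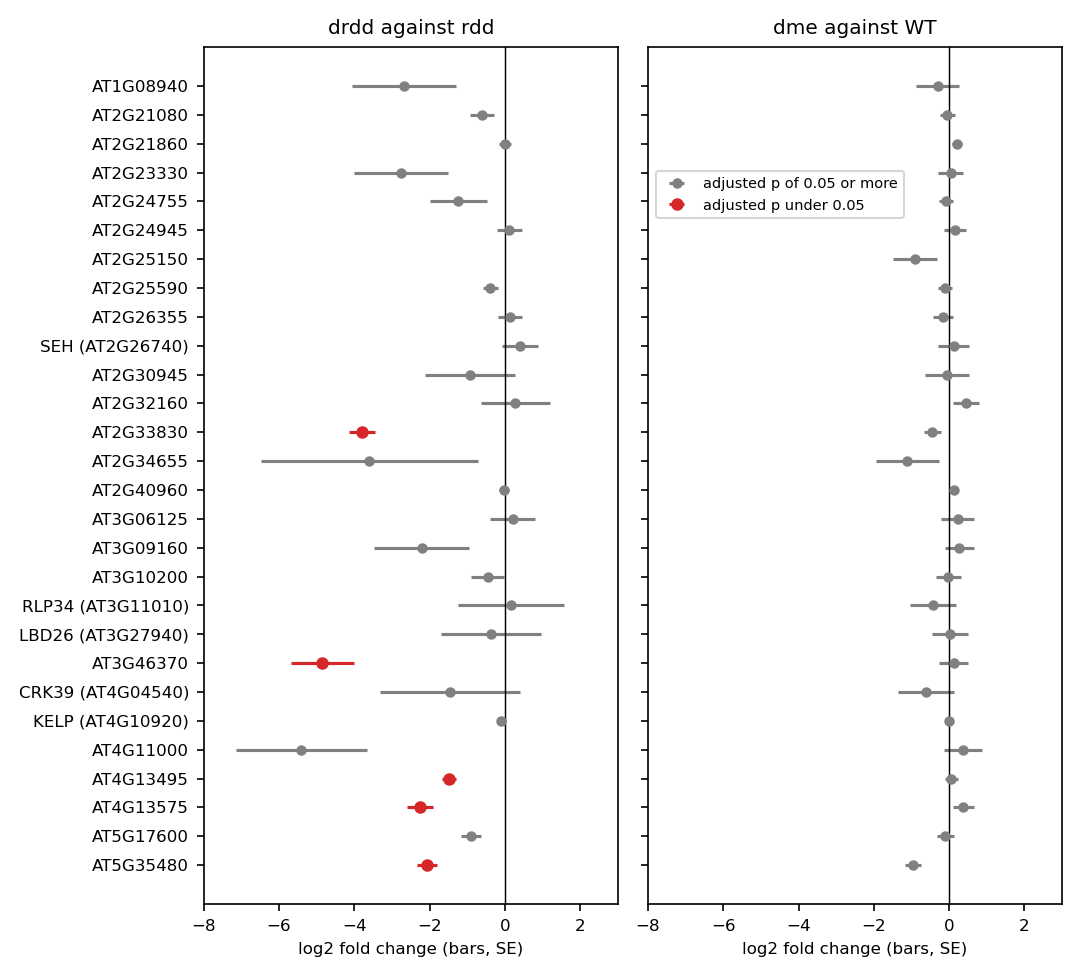
Fitted log2 fold change with its SE for each of the 28 genes in drdd against rdd (left) and dme against WT (right), with adjusted p under 0.05 in red. On the left 5 genes are called, all below 0, and on the right none is; AT2G25150, with no count in drdd or rdd, has no value on the left, and genes with few or no drdd counts have fitted values that depend on the fit.

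For the differences the rule did use, the same fit called 28 of the 28 genes lower in rdd than in WT (background 1.08%) and 27 lower in drdd than in WT (background 1.35%, all but AT2G24945, with an adjusted p of 0.0528), from which nothing is read. The authors' deposited tables called 28 and 27, all lower, against 4.70% and 3.38% of all their genes with an adjusted p. Of 3 genes known as ROS1 targets, EPF2, a stomatal signalling peptide gene, and RMG1, an immune receptor gene, did not pass the count filter and reached at most 0.966 and 0.809 CPM in any library. RLP43, another receptor-like protein gene, had 0, 0 and 0.10 CPM in drdd B to D, 0.264, 0, 0 and 0.129 CPM in rdd A to D, 0.72, 1.09, 3.28 and 12.6 CPM in dme A to D, and 13.3, 0.229, 0.0823 and 0.158 CPM in WT A to D. Its high values came from dme D and WT A, and it was not called in rdd (adjusted p = 0.206) or drdd (adjusted p = 0.230) against WT by edgeR. Of the 4 demethylase genes, DML2 was called lower against WT in rdd (log2 fold change −1.94, adjusted p = 0.000141) and drdd (−1.54, adjusted p = 0.00221), and DME, ROS1 and DML3 were not. In drdd against dme DML2 (−1.56, adjusted p = 0.00180) and DML3 (−1.16, adjusted p = 0.0470) were called lower.

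The genes were unevenly placed. Chromosome 2 held 14 of the 28 (50%, against 15.2% of the searched genes), chromosome 3 held 6 (21.4%, against 20%), chromosome 4 held 5 (17.9%, against 15.1%), chromosome 5 held 2 (7.14%, against 23.4%) and chromosome 1 held 1 (3.57%, against 26.3%). Chromosome 2 carries ROS1, chromosome 3 DML2, chromosome 4 DML3 and chromosome 5 DME. Of the 28, 13 (46.4%) lie between AT2G21080 and AT2G34655, a run of 1751 annotated loci with 5.24% of the searched genes. In that order the closest pairs are KELP and AT4G11000, 9 loci apart, AT4G13495 and AT4G13575, 17 apart, AT2G24755 and AT2G24945, 27 apart, and AT2G24945 and AT2G25150, 31 apart.

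Distance to the mutated genes was counted in annotated loci. Within 100 loci of ROS1, DML2 or DML3 was AT3G10200 alone of the 28, 29 loci from DML2 (3.57%, against 1.99% of the searched genes). Within 250 loci lay 4 (14.3%, against 5.17%), within 500 lay 6 (21.4%, against 10.1%) and within 1000 lay 9 (32.1%, against 19.3%). AT2G34655 was the nearest to ROS1, 249 loci away, followed by AT2G33830 at 355. AT3G09160 was 105 loci and RLP34 132 loci from DML2. None of the 28 lay within 1000 loci of DML3. AT5G17600 was 1515 loci and AT5G35480 3566 loci from DME. Loss of the demethylases and the segments that carry their mutant alleles cannot be told apart for any of the 28, and distance in loci does not measure how far a segment reaches.

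**Figure D4:**
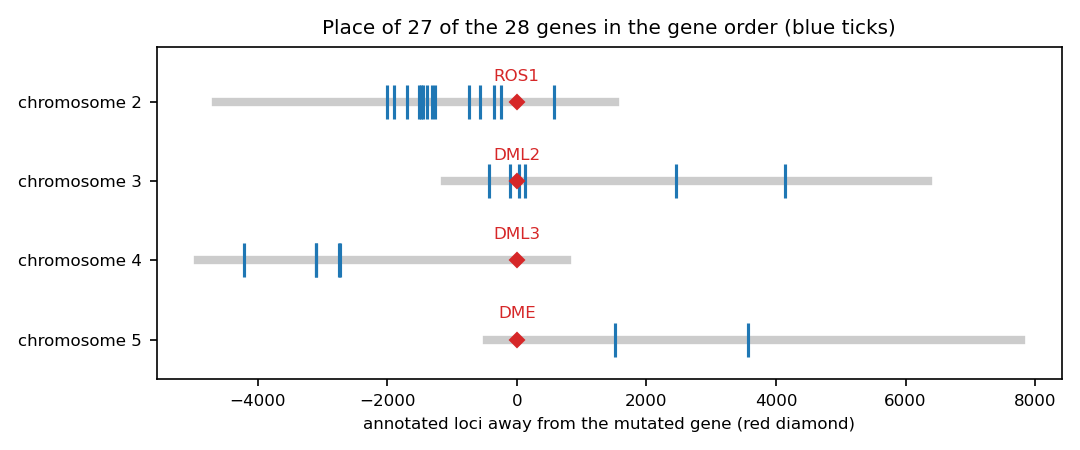
Position of 27 of the 28 genes (blue ticks; AT1G08940 on chromosome 1 is not drawn) in annotated loci from the mutated gene of the same chromosome (red diamond), with grey bars for the whole chromosome. On chromosome 2 most ticks lie between 1999 and 249 loci to the left of ROS1, and on chromosome 4 no tick is within 1000 loci of DML3.

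The loci directly before and after each gene were then tested, because the rule chose none of them by its own level. Among them, AT3G09162 and AT4G13577 have levels that meet the rule, and only the last digit of their locus number kept them out. Of 56 such neighbours 33 passed the count filter. In rdd against WT 5 were called, all lower (15.2%, against 1.08% of all tested genes), and in drdd against WT 3, all lower (9.09%, against 1.35%). By chromosome, 2 of 20 tested neighbours were called in rdd on chromosome 2, where 2.81% of all tested genes were called, 2 of 6 on chromosome 3 (1.65%) and 1 of 2 on chromosome 5 (0.510%). Both comparisons use the same WT libraries, and both counts include AT3G09162. The neighbours called by edgeR do not overlap the gene they neighbour. The median log2 difference of the 33 tested neighbours was −0.15 in rdd and −0.10 in drdd against WT, where that of all tested genes was −0.01 and 0.00.

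AT3G09162, an uncharacterised gene beside AT3G09160, had 0.0557, 0.104 and 0.10 CPM in drdd B to D, 0 in every rdd library, 1.73, 2.41, 2.79 and 5.74 CPM in dme A to D, and 1.78, 2.52, 1.98 and 3.32 CPM in WT A to D. It was called in rdd (adjusted p = 0.000343) and in drdd (log2 fold change −4.81, adjusted p = 0.00346) against WT by edgeR, and it is also one of the 6 genes that meet the rule but for the last digit. MRU1 (AT5G35490), beside AT5G35480, had 0.835, 0.934 and 1.41 CPM in drdd B to D, 7.55, 5.11, 8.76 and 8.45 CPM in rdd A to D, 7.78, 16.4, 11.6 and 13 CPM in dme A to D, and 21.8, 14.7, 20.7 and 14.7 CPM in WT A to D. Its log2 fold change was −4.19 in drdd (SE 0.34, adjusted p = 7.71e-06) and −1.27 in rdd (SE 0.25, adjusted p = 0.0231), so both genes of this pair were lowest in drdd and lower in rdd than in WT. The rdd libraries of MRU1 overlapped the dme libraries, which those of AT5G35480 did not.

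The other called neighbours had smaller differences. AT2G32170, like its neighbour AT2G32160 annotated as a methyltransferase, had 26.8, 29.4 and 24.5 CPM in drdd B to D, 21.3, 27.1, 28 and 25.1 CPM in rdd A to D, 46.2, 34.3, 35 and 36.5 CPM in dme A to D, and 39.1, 41.2, 43.3 and 35.7 CPM in WT A to D. It was lower by edgeR in drdd (log2 fold change −0.66, adjusted p = 0.0113) and in rdd (−0.66, adjusted p = 0.00633), a small step beside that of AT2G32160. In rdd MAPR2 (AT2G24940), beside AT2G24945, had −0.75 (adjusted p = 0.0381) and AT3G27930, beside LBD26, −0.67 (adjusted p = 0.0213). These 2 calls were lost under 10 and 6 of 20 alternatives, and that of MRU1 in rdd under 6. Counts of called neighbours in rdd fell to 2 without WT A, WT C or rdd A and to 3 without rdd C or rdd D. In drdd the count was 5 without rdd D. DESeq2 called 10 of 36 neighbours with an adjusted p in rdd (27.8%, against 2.89% of all genes) and 9 of 35 in drdd (25.7%, against 3.15%). Of these 8 were lower in each comparison. The others were higher by DESeq2: AT2G26360, which overlaps AT2G26355, in rdd (log2 fold change 1.02, adjusted p = 0.0219), and AT2G26750, a hydrolase gene beside SEH, in drdd (3.20, adjusted p = 0.00498) and rdd (2.69, adjusted p = 0.0210). AT2G26750 had 1.23, 4.88 and 3.41 CPM in drdd B to D, 2.72, 0.435, 1.73 and 3.39 CPM in rdd A to D, 0.216, 0.545, 0.903 and 0.492 CPM in dme A to D, and 0.485, 0.229, 0.576 and 0 CPM in WT A to D, and edgeR did not call it. AT4G13577, beside AT4G13575, was called lower by DESeq2 alone (adjusted p = 0.0210 in drdd and 0.00200 in rdd). With 3 loci on each side, 87 of 168 neighbours were tested, and 11 were called in rdd (12.6%) and 7 in drdd (8.05%).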

How the data were processed

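Polyadenylated leaf RNA was sequenced in 15 libraries, grouped by the genotype and replicate letter in the labels. The authors deposited whole read counts per gene for each library. Per the submitters' processing notes, FastQC, Trim Galore, STAR, HTSeq and DESeq2 were used, without versions. For the genome build, the gene annotation and strandedness, a statement was not given in the sources used here. The 5 summary lines that name no gene were left out everywhere. Reads without a feature made up 1.54% to 2.17% of a library and ambiguous reads 0.117% to 0.176%. HTSeq's handling of reads that match several places is not stated, which could affect genes with near-identical copies. The authors also deposited comparison tables with the mean signal (counts scaled by size factors), the log2 fold change and its standard error, the Wald score and p-values, per the file headers.

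CPM was computed from the gene counts of each library. Tests used edgeR 4.0.16 in R 4.3.3 on the deposited counts: filterByExpr (minimum count 10, smallest group 3) left 18598 genes, TMM factors were 0.953 to 1.09, and one quasi-likelihood fit with robust dispersions over the 15 libraries left 11 residual degrees of freedom, with a common BCV (biological coefficient of variation) of 0.266. The call threshold was an adjusted p under 0.05 (Benjamini-Hochberg, all tested genes). The SE given with edgeR values was derived from the quasi-likelihood F, as the absolute log2 fold change over the square root of F. It is unstable for genes with few or no counts. The drdd against rdd fit was tested on simulated data. Alternatives were DESeq2 1.42.0, its size factors, no count filter, a replicate block, fewer genotypes, each library left out, and other limits of the rule. Folds against groups without counts used a floor of 3 counts per group, and 95% intervals were exact. The 28 genes, the 11 gene lists (45 genes) and the tests were chosen with earlier results of these data known. All 28 genes are named, with called neighbours, the 3 genes nearest the limit on either side, the demethylases and the ROS1 targets. Other genes are singled out after their values were seen. Names, classes and gene order came from RefSeq TAIR10.1, which matched 37051 of 37336 identifiers; 285 did not match.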

Additional observations from a re-analysis of the deposited data

Results flagged for a closer look

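Within a genotype of 4 libraries, a level was singled out when its gap to the nearest other library, as a share of the whole range, passed Dixon's critical value for 4 samples. Of 84 groups of 4 libraries 7 passed, where chance gives about 1 in 20 for normally distributed values. The rdd group of AT2G25150, with 0 in every library, has no range and could not be tested. SEH (AT2G26740) had 117.9 CPM in dme C, against 86.3 to 90.5 CPM in the other dme libraries. KELP (AT4G10920) had 88.55 CPM in dme B, against 99.0 to 100.7 CPM in the others. AT2G30945 had 0.633 CPM in WT D (8 counts), against 1.54 to 1.72 CPM in the other WT libraries. Among rdd libraries, AT2G32160 had 0.703 CPM in rdd A, against 0.109 to 0.173 CPM, and AT3G10200 had 0.878 CPM in rdd A, against 0.434 to 0.472 CPM. AT2G40960 had 5.06 CPM in rdd D, against 4.24 to 4.30 CPM. CRK39 (AT4G04540) had 0.0429 CPM in rdd D, which is 1 count, against 0 in the others. Its gap was the whole range, so this group had to pass.

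The change with loss of DME differed between plants without and with ROS1, DML2 and DML3 in 3 of the 28 genes, by the interaction of edgeR's quasi-likelihood fit. It was −3.35 on the log2 scale for AT2G33830, −1.54 for AT4G13495 and −2.64 for AT4G13575.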

How the results depend on the processing

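The number of genes that met the rule was 38 with the looser ratio tried, 21 with a ratio of 2, 32 and 25 with a WT minimum of 0.5 and 2 CPM, 30 with TMM factors or DESeq2 size factors, and 28 to 36 with a library left out. Identifiers ending in any digit, an alternative chosen after seeing the data, gave 34. DESeq2 called 1 of the 28 in dme against WT, 5 for the interaction, and 10 and 9 neighbours in rdd and drdd against WT. With only the rdd and drdd libraries, 2 of the 28 were called between them, and AT3G46370 did not pass the count filter. With 3 loci on each side 11 and 7 neighbours were called in rdd and drdd. Without one library, calls ranged from 3 to 5 in drdd against rdd, were 0 in dme against WT throughout, and ranged from 1 to 3 for the interaction, from 2 to 6 for neighbours in rdd and from 2 to 5 for neighbours in drdd. The causes were not tested. Shares of all genes called are not given for fits with libraries left out, so these counts have no background beside them. No direction reversed among the 28 genes' folds in rdd against WT and drdd against dme, or among the genes and neighbours called by edgeR, under the alternatives run; differences that were not called were not followed. Depth limits the genes with 0 to 3 counts in a genotype, where folds are bounds or have wide intervals.

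Replicate letters did not pair the libraries: deviations of same-lettered libraries correlated at −0.495 to 0.430, over 0.1 in 8 of 21 pairs, and 3 of 15 libraries correlated best with their own letter. With the letter as a replicate block, 5 genes were called in drdd against rdd, 0 in dme against WT, 1 for the interaction, and 2 and 3 neighbours in rdd and drdd against WT.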
